A study of Mus musculus with 16 samples.

Results

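The miRNAs described here are the arrayed members of the miR-297, miR-466, miR-467 and miR-669 families in whole mouse lung. They were chosen by name alone, as every mouse miRNA on the array whose name starts with miR-297, miR-466, miR-467 or miR-669, whatever its letter or arm. This gave 39 of the 611 mouse miRNAs on the array, of which 3 were named miR-297, 14 miR-466, 10 miR-467 and 12 miR-669.

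Total RNA of whole lungs was hybridised to Agilent 1-colour miRNA arrays in a mouse model of allergic airways disease driven by ovalbumin (OVA, an egg white protein). PBS/PBS mice (2 arrays) were injected with 1 mg Alhydrogel adjuvant in PBS on day 0 and challenged intranasally with PBS on days 12 to 15, and PBS/OVA mice (4 arrays) had the same injection but were challenged with 10 μg OVA. OVA/OVA mice (6 arrays) were sensitised with 50 μg OVA in 1 mg Alhydrogel and challenged with 10 μg OVA, and OVA/OVA DEX mice (4 arrays) were also given 3 mg/kg dexamethasone (DEX, a synthetic glucocorticoid) from day 11 on. All groups were sampled 24 hours after the last challenge. The animals were BALB/c mice of 8 to 12 weeks, each array is taken as 1 lung sample, and the methods name OVA as the challenge of all mice whereas the labels name PBS for PBS/PBS, which was followed here. The labels do not say that each array is a separate animal, so p-values measure the spread between these samples.

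A miRNA is a short RNA that guides silencing proteins to messenger RNAs, mainly through its seed, bases 2 to 8 from the 5′ end. In rodents, an intron of Sfmbt2, which encodes a polycomb group protein, holds a large tandem array of miRNA genes of these families. The host gene is imprinted and is best known for its part in the placenta, where the miRNAs are also expressed. Many of these miRNAs are rich in alternating AC or GU bases, and several are made in near-identical form from more than 1 gene. Probes for such miRNAs can share target RNA, so a value below is the signal of the probes that carry a name and may include relatives.

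The name Sfmbt2 cluster fitted most members but not all. The RefSeq gene table for GRCm38.p6 listed 81 miRNA genes of the 4 families, 71 of them within the bounds of Sfmbt2 on chromosome 2 and 10 elsewhere. By gene name, 30 members came from genes within Sfmbt2 only, 6 from genes outside it only and 3 from both. The 6 outside were miR-466i-3p, miR-466j, miR-466k, miR-467f, miR-467g and miR-669n, of which miR-466i-3p, miR-467f and miR-669n were among the 13 members that entered the tests. The miR-466f and miR-297a names belonged to genes within Sfmbt2 and to a further gene on chromosome 13 and 7, respectively. The table gives no exons, so intron positions were not looked at.

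The mature sequences of these 6 members were the ones found by name in RefSeq. They are shown because they carry AC or GU repeats that most other array miRNAs with such a sequence lack. All 6 come from genes outside Sfmbt2, so no member made within it was looked at for repeats. They lie in GRCm38.p6 at chr13:17747552-17747573 (+) for miR-466i-3p, chr10:60960802-60960824 (+) for miR-466j, chr3:85467396-85467418 (+) for miR-466k, chr11:69635419-69635439 (-) for miR-467f, chr5:34732872-34732892 (-) for miR-467g and chr3:115979905-115979924 (+) for miR-669n. Capitals mark the seed.
miR-466i-3p: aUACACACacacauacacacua
miR-467f: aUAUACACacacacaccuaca
miR-467g: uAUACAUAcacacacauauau
miR-466k: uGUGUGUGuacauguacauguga
miR-466j: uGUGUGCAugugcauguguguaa
miR-669n: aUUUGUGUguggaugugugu

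The 6 had 6 different seeds, and no other array miRNA with a RefSeq mature sequence had any of them. The remaining members had no such sequence, so seeds shared with them were not looked at. The first 3 are built of AC repeats and the last 3 of GU repeats. The longest unbroken alternation of A and C was 12 bases in miR-467f, 11 in miR-466i-3p and 9 in miR-467g, and that of G and U was 9 bases in miR-466k, 8 in miR-669n and 7 in miR-466j. Of the 476 array miRNAs with a RefSeq mature sequence, 12 (2.52%) held an alternating AC or GU run of at least 7 bases, read along the miRNA in either phase, and 6 of those 12 were members. miR-466i-3p and miR-467f were 5 single-base edits apart, as were miR-467f and miR-467g, and each AC member was at least 12 edits from each GU member.

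The other 6 miRNAs with such a run belong to other families and carry the same kind of repeat. Of these, miR-206-3p and miR-294-3p did not enter the tests and are not followed below. The 4 that entered the tests serve as a comparison. They are miR-574-5p at chr5:64970328-64970350 (+), miR-574-3p at chr5:64970364-64970385 (+), miR-1187 at chr5:82798964-82798986 (-) and miR-672-5p at chrX:104116228-104116250 (-).
miR-574-5p: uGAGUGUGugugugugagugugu
miR-1187: uAUGUGUGuguguauguguguaa
miR-672-5p: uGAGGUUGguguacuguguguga
miR-574-3p: cACGCUCAugcacacacccaca

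Detection was taken from the flag that the scanner software sets for each miRNA on each array. Of the 39 members, 24 (61.5%) were detected on at least 1 array and 15 on none, beside 55.3% detected among all 611 mouse miRNAs. In comparison, 4 of 14 miRNAs (28.6%) of the miR-290 to miR-295 cluster, known from embryonic stem cells, and 19 of 67 (28.4%) of the imprinted Dlk1-Dio3 locus were detected on at least 1 array. Detection on every array was less common among the members. Only miR-467b-5p, miR-669a_v15.0 and miR-669f-3p were detected on all 16 arrays, beside 206 of the 611 mouse miRNAs. By family, 9 of 10 miR-467 names, 8 of 14 miR-466 names, 6 of 12 miR-669 names and 1 of 3 miR-297 names were detected at least once. By arm, 10 of 12 members named 3p and 8 of 17 named 5p were detected, as were 6 of 10 whose name gives no arm.

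The number of members detected per array varied widely within groups. It was 15 and 14 in PBS/PBS, and 10, 10, 10 and 21 in PBS/OVA replicates 1 to 4. It was 10, 9, 8, 19, 17 and 14 in OVA/OVA replicates 1 to 6, and 9, 12, 23 and 4 in OVA/OVA DEX replicates 1 to 4. The groups overlapped, and each group beyond PBS/PBS held arrays with many and arrays with few members detected. Over the same arrays the number of all mouse miRNAs detected ranged from 224 to 301. OVA/OVA DEX replicate 4, with the fewest members, also had the fewest mouse miRNAs and the highest median of the negative control spots, 3.59 against 1.74 to 2.85 on the other arrays. Members made up 0.0446% to 0.407% of the summed miRNA signal, with the highest shares on OVA/OVA DEX replicate 3 (0.407%), OVA/OVA replicate 5 (0.328%) and PBS/OVA replicate 4 (0.289%).

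**Figure D1:**
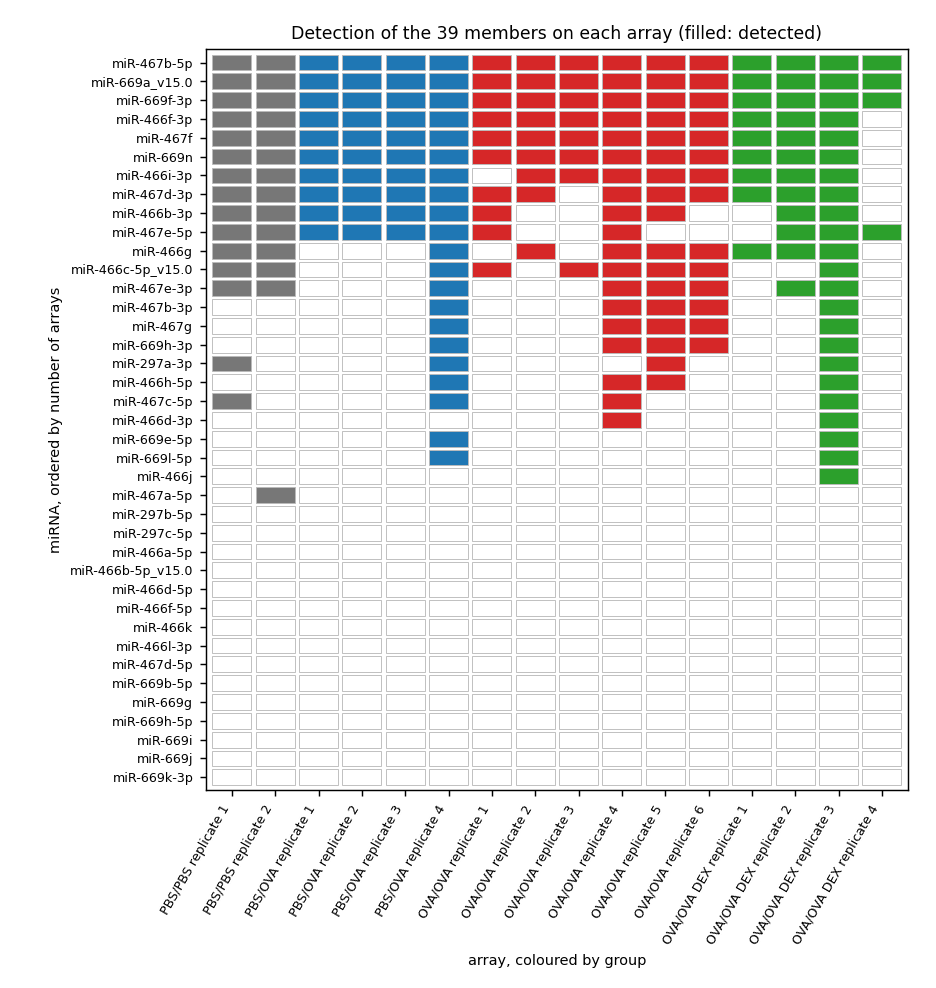
Each row is 1 of the 39 members and each column 1 array, coloured by group where the miRNA was detected and white where it was not. The 3 top rows are filled on all 16 arrays and the 15 bottom rows on none. The middle rows are filled most on PBS/OVA replicate 4, OVA/OVA replicates 4 and 5 and OVA/OVA DEX replicate 3. Both PBS/PBS arrays and OVA/OVA replicate 6 come next.

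A set of 3 arrays, PBS/OVA replicate 4, OVA/OVA replicate 5 and OVA/OVA DEX replicate 3, thus stood apart by the share of signal from members. They detected 21, 17 and 23 members, the most in their group except for OVA/OVA replicate 5, which came after the 19 of OVA/OVA replicate 4. They come from 3 different groups and lay on 1 slide. They were picked from the values and are described here as single arrays, not as a group. Their summed miRNA signals were 553052, 371463 and 499733, within the range of 251350 to 940050 over all arrays. Results are also given without them. The 8 arrays of slide 1, which included both PBS/PBS arrays, detected 4 to 15 members (median 10) and the 8 arrays of slide 2 detected 8 to 23 (median 15.5), while the medians over all mouse miRNAs were 265 and 255.5. PBS/PBS therefore cannot be compared with another group within slide 2.

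The 11 members that were detected but did not enter the tests were found on few arrays. miR-297a-3p was detected on 1 array of each group and miR-467c-5p likewise. miR-467b-3p, miR-467g and miR-669h-3p were each detected on 3 OVA/OVA arrays, 1 PBS/OVA array, 1 OVA/OVA DEX array and no PBS/PBS array. miR-466h-5p was detected on 2 OVA/OVA arrays and on 1 array each of PBS/OVA and OVA/OVA DEX, and miR-466d-3p on 1 OVA/OVA and 1 OVA/OVA DEX array. miR-669e-5p and miR-669l-5p were detected on 1 PBS/OVA and 1 OVA/OVA DEX array, miR-466j on 1 OVA/OVA DEX array, and miR-467a-5p on 1 PBS/PBS array. Of these 11, 10 were detected on OVA/OVA DEX replicate 3, 5 on all 3 of the arrays named above, and 3 on none of the other 13 arrays. OVA/OVA replicate 4, outside that set, detected 6 of the 11, and OVA/OVA replicate 5 within it detected 5. The one exception to detection on OVA/OVA DEX replicate 3 was miR-467a-5p.

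The 15 members detected on no array were miR-297b-5p, miR-297c-5p, miR-466a-5p, miR-466b-5p_v15.0, miR-466d-5p, miR-466f-5p, miR-466k, miR-466l-3p, miR-467d-5p, miR-669b-5p, miR-669g, miR-669h-5p, miR-669i, miR-669j and miR-669k-3p. For these the arrays give only an upper bound.

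A miRNA entered the tests when all arrays of some group detected it, which held for 266 mouse miRNAs and 13 members. All 13 passed through PBS/PBS, the group of 2 arrays, and 3 of them through that group only, since they were detected on both of its arrays but not on every array of a larger group. Through PBS/OVA 10 would have passed, through OVA/OVA 6 and through OVA/OVA DEX 3. The values below are log2 signals after all arrays were brought to a common upper quartile (75th percentile), taken over the 206 miRNAs that all arrays detected, with anything lower set to a floor of 0.77. Such values compare arrays for 1 miRNA and not 1 miRNA with another. Of the 208 values of the 13 members, 170 were flagged as detected and 2 lay at the floor. Never detected mouse miRNAs outside the families sat at the floor in the median on every array, with a 95th percentile of 1.54 to 3.28.

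Among the miR-467 names, miR-467b-5p was the steadiest. It measured 5.29 and 5.24 in PBS/PBS, and 5.30, 4.85, 5.21 and 5.33 in PBS/OVA. In OVA/OVA it ranged from 5.32 to 5.61 with a median of 5.46, and in OVA/OVA DEX it was 5.35, 5.41, 5.42 and 5.24. All 6 OVA/OVA values lay above both PBS/PBS values, and PBS/OVA replicate 2 was the lowest array. The other 5p member of this family, miR-467e-5p, measured 4.39 and 4.28 in PBS/PBS and 4.54, 4.17, 4.28 and 4.73 in PBS/OVA. It ranged from 4.12 to 4.56 with a median of 4.34 in OVA/OVA, and was 4.27, 4.56, 4.70 and 4.30 in OVA/OVA DEX. These groups overlapped fully.

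The 3p arm of miR-467e and the remaining miR-467 members tested spread far more. miR-467e-3p measured 4.16 and 3.81 in PBS/PBS and 3.44, 1.62, 3.47 and 6.37 in PBS/OVA. In OVA/OVA it ranged from 2.49 to 6.85 with a median of 4.57, and in OVA/OVA DEX it was 4.30, 4.52, 7.23 and 2.68. PBS/OVA replicate 4 lay far above the rest of its group, and the groups overlapped throughout. miR-467d-3p measured 4.39 and 4.41 in PBS/PBS, and 4.01, 3.27, 4.02 and 6.47 in PBS/OVA. It ranged from 3.67 to 6.67 with a median of 5.07 in OVA/OVA and was 4.90, 4.94, 7.28 and 3.54 in OVA/OVA DEX. The same 3 arrays were highest for both. miR-467f, whose gene lies on chromosome 11, measured 4.93 and 4.78 in PBS/PBS and 4.49, 4.66, 4.82 and 6.71 in PBS/OVA. It ranged from 4.24 to 7.24 with a median of 6.02 in OVA/OVA, and was 5.41, 5.11, 7.45 and 3.94 in OVA/OVA DEX. Here OVA/OVA replicate 3, at 6.83, took the place of PBS/OVA replicate 4.

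Of the miR-466 names, miR-466g had the widest spread. It measured 4.47 and 4.63 in PBS/PBS and 3.47, 1.49, 3.20 and 7.44 in PBS/OVA. In OVA/OVA it ranged from the floor of 0.77 to 7.75 with a median of 5.93, and in OVA/OVA DEX it was 5.39, 5.71, 8.27 and 0.77, the last again at the floor. miR-466f-3p, made from genes within Sfmbt2 and from 1 on chromosome 13, measured 4.98 and 4.87 in PBS/PBS and 4.26, 4.03, 4.31 and 7.64 in PBS/OVA. Its OVA/OVA values ranged from 3.41 to 7.86 with a median of 6.33, and its OVA/OVA DEX values were 5.77, 6.03, 8.19 and 3.30. For both, OVA/OVA DEX replicate 3 was the highest array and OVA/OVA DEX replicate 4 the lowest, for miR-466g level with OVA/OVA replicate 1 at the floor, so that 1 group held both ends of the range. miR-466i-3p, from chromosome 13 alone, measured 4.36 and 4.08 in PBS/PBS and 3.86, 3.56, 3.84 and 6.40 in PBS/OVA. It ranged from 3.26 to 6.71 with a median of 5.40 in OVA/OVA and was 4.97, 5.00, 7.09 and 3.43 in OVA/OVA DEX. Its pattern matched that of miR-466f-3p (r = 0.98 over 16 arrays).

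The remaining miR-466 members departed from it. miR-466b-3p measured 4.30 and 4.59 in PBS/PBS and 3.84, 4.07, 4.02 and 4.76 in PBS/OVA. It ranged from 3.09 to 4.91 with a median of 4.13 in OVA/OVA, and was 3.43, 4.30, 4.98 and 4.03 in OVA/OVA DEX. No group stood above another. miR-466c-5p_v15.0 measured 3.25 and 3.37 in PBS/PBS and 3.20, 3.11, 3.05 and 4.84 in PBS/OVA, detected in the latter on replicate 4 alone. It ranged from 3.72 to 6.34 with a median of 4.51 in OVA/OVA, where 5 of 6 arrays detected it, and was 3.51, 3.35, 5.14 and 2.83 in OVA/OVA DEX, where 1 of 4 did. All 6 OVA/OVA values lay above both PBS/PBS values and above 3 of the 4 PBS/OVA values, and OVA/OVA replicate 3 was the highest array.

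The 3 miR-669 members tested were detected on 15 or 16 arrays. miR-669a_v15.0 measured 4.77 and 4.71 in PBS/PBS and 4.55, 4.66, 4.50 and 5.63 in PBS/OVA. It ranged from 5.17 to 6.11 with a median of 5.40 in OVA/OVA and was 4.75, 4.78, 5.98 and 4.33 in OVA/OVA DEX. Again all 6 OVA/OVA values lay above both PBS/PBS values, whereas PBS/OVA replicate 4 and OVA/OVA DEX replicate 3 lay among the OVA/OVA values. miR-669f-3p measured 5.97 and 6.08 in PBS/PBS and 5.87, 5.79, 5.86 and 7.06 in PBS/OVA. It ranged from 5.98 to 7.15 with a median of 6.20 in OVA/OVA and was 6.17, 6.28, 7.48 and 5.77 in OVA/OVA DEX. Each group beyond PBS/PBS had 1 array near or above 7 and the rest near 6. miR-669n, from chromosome 3, measured 4.54 and 4.26 in PBS/PBS and 4.04, 4.17, 3.99 and 6.79 in PBS/OVA. It ranged from 4.27 to 6.97 with a median of 5.97 in OVA/OVA and was 4.96, 5.28, 7.12 and 3.68 in OVA/OVA DEX.

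**Figure D2:**
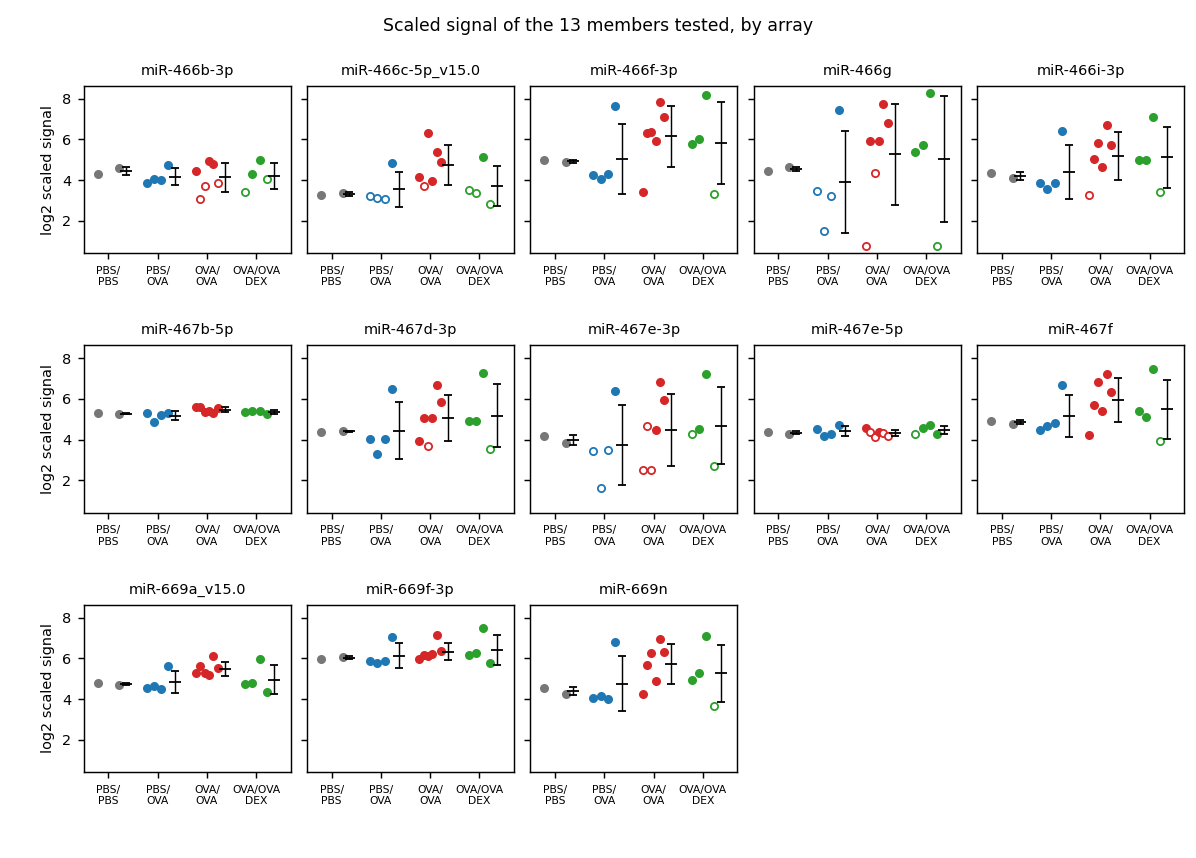
Each panel is 1 of the 13 members tested and each point 1 array, with the log2 scaled signal on the vertical axis. Filled points are arrays that detected the miRNA, open points arrays that did not, and bars give the group mean ± SD. In the panels of miR-466f-3p, miR-466g, miR-466i-3p, miR-467d-3p, miR-467e-3p and miR-669n, a single PBS/OVA point lies far above the other 3, while miR-467b-5p and miR-467e-5p form narrow bands.

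In these whole lungs, none of the 13 members tested was called in any of the 6 comparisons, a call being a difference of 2-fold or more with an adjusted p under 0.05. The test was limma's moderated test over all 266 miRNAs with Benjamini-Hochberg adjustment. The F-test over the 4 groups also called 0 members, beside 36 of 266 miRNAs (13.5%), and miR-467b-5p was the only member with an unadjusted p under 0.05 in it (adjusted p = 0.0911 in limma). Fewer cells of a type and less of a miRNA per cell cannot be told apart in such samples.

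Between PBS/OVA and PBS/PBS, which by their labels differ in the OVA challenge, 0 members were called, beside 0.376% of the miRNAs tested, and 0 members had an unadjusted p under 0.05. Fitted differences ran from -0.65 to 0.35 on the log2 scale with a median of 0.10, beside 0.02 over all 266 miRNAs, with 9 members higher and 4 lower, but the median was -0.48 without scaling between arrays, -0.20 with the percentile over all miRNAs and -0.10 after quantile normalization. The member with the smallest p was miR-467b-5p, at -0.09 ± 0.13 (SE, adjusted p = 0.997 in limma). Without the 3 arrays named above, all 13 members were lower in PBS/OVA, with a median of -0.33. PBS/PBS lay on slide 1 only and PBS/OVA on both slides. With the slide as a block 12 of 13 members were lower in PBS/OVA, with a median of -0.36, and within slide 1 all 13 were lower, with a median of -0.32. All 13 had entered the tests through detection on both PBS/PBS arrays, 3 of them through that group only. That filter keeps members with signal in PBS/PBS and can add to the number lower in PBS/OVA. These counts are therefore not read as an effect of the challenge.

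Between OVA/OVA and PBS/PBS, the allergic and the unexposed lung, 0 members were called, beside 9.77% of the miRNAs tested, and again 0 had an unadjusted p under 0.05. In OVA/OVA 11 members had a higher and 2 a lower mean, and the median difference was 0.71, beside -0.02 over all 266 miRNAs, but -0.37 without scaling between arrays. The groups did not overlap for 3 of 13 members (23.1%), miR-466c-5p_v15.0, miR-467b-5p and miR-669a_v15.0, beside 51.5% of the miRNAs tested. The smallest p belonged to miR-466c-5p_v15.0, with means of 4.74 and 3.31 and a difference of 1.43 ± 0.71 (SE, adjusted p = 0.144 in limma). With the slide as a block its difference was 0.70, and within slide 1 it was 0.62, with adjusted p-values of 0.397 and 0.139 in limma. The median over the members was -0.10 with the slide as a block and 0.10 within slide 1. Without scaling between arrays 2 members were called lower in OVA/OVA, beside 58.6% of the miRNAs tested, and after normexp background correction 5 were called higher, beside 11.3%. These 5 were miR-466c-5p_v15.0 at 1.03 (adjusted p = 0.0253 in limma, beside 0.0253 to 0.878 over its alternatives), miR-466f-3p, miR-466g, miR-467f and miR-669n.

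Between OVA/OVA and PBS/OVA, which differ in sensitisation, 0 members were called, beside 5.26% of the miRNAs tested. Of the 13, miR-467b-5p and miR-669a_v15.0 had an unadjusted p under 0.05 and the former alone an adjusted p under 0.05, with means of 5.47 and 5.17 and a difference of 0.29 ± 0.095 (SE, adjusted p = 0.0331 in limma), or 1.23-fold. It was past the threshold on p but below 2-fold, as 31.6% of the miRNAs tested were past the threshold on p alone. Its difference was 0.57 within slide 1 and 0.09 within slide 2, and 0.19 without PBS/OVA replicate 2, with adjusted p-values of 0.0822, 0.465 and 0.0757 in limma. The adjusted p was also above 0.05 without PBS/OVA replicate 3 or any of OVA/OVA replicates 1, 2 and 6, at 0.0611 to 0.066. Without any scaling between arrays it was -0.22, and after quantile normalization -0.09 and after scaling by positive control spots -0.27, so its direction was not fixed. Over the members the median was 0.77, with 11 higher and 2 lower, beside -0.04 over all 266 miRNAs. It was 0.25 without scaling between arrays, 0.29 after quantile normalization and 0.20 with positive control spots, each with 9 higher and 4 lower. The largest fitted differences, 1.36 for miR-466g and 1.18 for miR-466c-5p_v15.0, had overlapping groups. Without the 3 arrays that stood apart, 1 member was called, miR-466c-5p_v15.0 at 1.49 ± 0.49 (SE, adjusted p = 0.0458 in limma), beside 6.02% of the miRNAs tested.

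Between OVA/OVA and OVA/OVA DEX, which differ in the steroid, 0 members were called, beside 12.8% of the miRNAs tested, and 0 had an unadjusted p under 0.05. Differences ran from -0.19 to 1.03 with a median of 0.11, beside -0.09 over all 266 miRNAs, with 8 members higher in OVA/OVA and 5 lower, but the median was between -0.11 and -0.55 under the 4 other scalings. The smallest p again belonged to miR-466c-5p_v15.0, with means of 4.74 and 3.71 and a difference of 1.03 ± 0.56 (SE, adjusted p = 0.138 in limma). Its difference was 0.76 within slide 1 and 0.90 within slide 2. Without OVA/OVA DEX replicate 3 it was 1.50 ± 0.55 (SE, adjusted p = 0.0377 in limma) and called, and without the 3 arrays that stood apart 1.38 ± 0.49 (SE, adjusted p = 0.0386 in limma) and called. Over its 37 alternatives the adjusted p ranged from 0.0377 to 0.527.

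OVA/OVA DEX was also set against both control groups. Against PBS/PBS, 0 members were called, beside 0.0% of the miRNAs tested, and the median difference was 0.49 with 12 members higher, beside 0.09 over all 266 miRNAs, but -0.18 without scaling between arrays. In limma 0 members had an unadjusted p under 0.05 against either control group. miR-669n had the smallest p, at 0.86 ± 0.96 (SE, adjusted p = 0.838 in limma), and its difference was 0.15 with the slide as a block and -0.08 within slide 1. Over the members, the median was 0.0038 with the slide as a block (7 higher, 6 lower), -0.18 within slide 1 (1 higher, 12 lower) and 0.04 without the 3 arrays. The filter through PBS/PBS can add to the number lower than PBS/PBS here too. Against PBS/OVA, 0 members were called, beside 0.752% of the miRNAs tested. All 13 fitted differences were above 0, with a median of 0.31 beside 0.04 over all 266 miRNAs, but without scaling between arrays 8 were higher and 5 lower with a median of 0.09. The smallest p was that of miR-467b-5p at 0.18 ± 0.10 (SE, adjusted p = 0.338 in limma). The comparisons that involve OVA/OVA share its 6 arrays, and those that involve PBS/PBS share its 2 arrays, so their values are not independent.

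**Figure D3:**
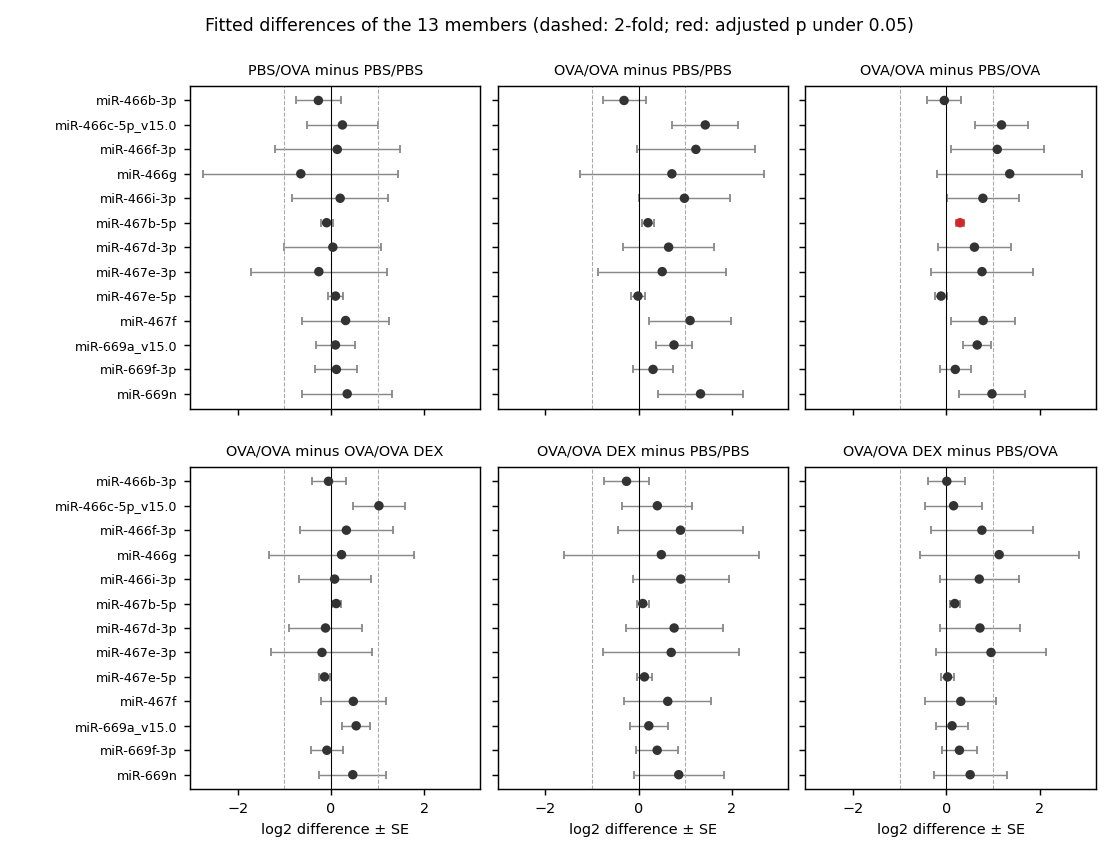
Each panel is 1 comparison and each point the fitted log2 difference of 1 of the 13 members, with bars of ± 1 SE, dashed lines at 2-fold and red for an adjusted p under 0.05. The red point is miR-467b-5p at 0.29 between OVA/OVA and PBS/OVA, and points beyond 2-fold, such as miR-466g at 1.36, have wide bars.

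The spread between arrays of 1 group set the size of these errors. The pooled within-group SD of the members had a median of 1.14 on the log2 scale, beside 0.20 over all 266 miRNAs tested. It was above 1 for 7 of 13 members, beside 20 of 266 miRNAs (7.52%), and was 2.56 for miR-466g, 1.78 for miR-467e-3p and 1.64 for miR-466f-3p, the 3 widest of all 266. These 3 were detected on 10, 8 and 15 of the 16 arrays, whereas 206 of the 266 miRNAs were detected on all. The spread was not compared with that of other miRNAs of like signal. For miR-467b-5p and miR-467e-5p it was 0.14 and 0.20, at or below the middle of the miRNAs tested. The pair of arms of miR-467e thus measured an SD of 1.78 for 3p and 0.20 for 5p in the same samples.

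The wide members rose and fell together across arrays. For 7 of the 13 members, miR-466f-3p, miR-466g, miR-466i-3p, miR-467d-3p, miR-467e-3p, miR-669f-3p and miR-669n, the 3 highest of all 16 arrays were PBS/OVA replicate 4, OVA/OVA replicate 5 and OVA/OVA DEX replicate 3. The same 3 were highest for 10 of the 253 other miRNAs tested (3.95%). OVA/OVA DEX replicate 4 was the lowest array for 7 members, for miR-466g together with OVA/OVA replicate 1. With miR-467f added, these 8 members correlated with each other at r = 0.76 to 0.98 over 16 arrays (28 pairs, median 0.89), and at 0.44 to 0.97 over the 13 arrays left without those 3 (median 0.83). Such pairs include miR-467d-3p with miR-467e-3p (r = 0.98) and miR-466i-3p with miR-467f (r = 0.98) and with miR-669n (r = 0.98), whose genes lie on chromosomes 13, 11 and 3. miR-466b-3p, miR-467b-5p and miR-467e-5p correlated with those 8 at 0.13 to 0.55 over 16 arrays and at -0.51 to 0.66 over 13. The sets were chosen from these values, the arrays are shared by all pairs and related probes can share target RNA, so the correlations are a description.

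**Figure D4:**
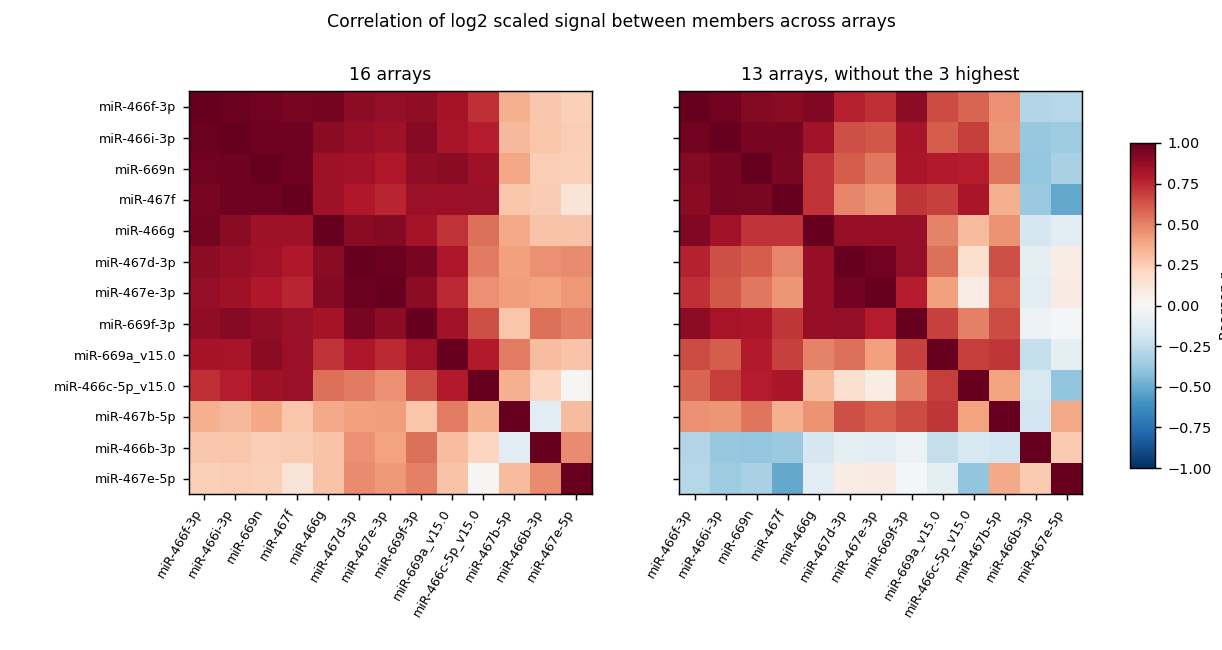
Each square gives Pearson's r between the log2 scaled signals of 2 members, over 16 arrays on the left and over the 13 arrays without PBS/OVA replicate 4, OVA/OVA replicate 5 and OVA/OVA DEX replicate 3 on the right. The 8 members at the upper left form a red block in both panels, whereas miR-467b-5p, miR-466b-3p and miR-467e-5p at the end are paler on the left and partly blue on the right.

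The AC and GU repeats shown above were not confined to these families. Some miRNAs of other families that carry them were highest on the 3 arrays that stood apart. So were miRNAs not among the 12 with such a run, such as let-7a-5p, let-7b-3p and let-7b-5p. The part of the repeats in this pattern was not tested. miR-574-3p, with an AC run of 7 bases, measured 5.81 and 5.92 in PBS/PBS and 5.47, 5.35, 5.55 and 7.90 in PBS/OVA. It was 8.09 on OVA/OVA replicate 5 and 8.45 on OVA/OVA DEX replicate 3, and it had the same 3 highest arrays as the 7 members. Its correlation was 0.97 with miR-467d-3p and 0.96 with miR-467e-3p over 16 arrays, and 0.92 and 0.90 over 13. miR-672-5p, with a GU run of 8 bases, also had these 3 arrays highest, at 6.72, 6.76 and 6.78, against 4.99 to 6.38 on the others.

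The miRNAs with the longest GU runs showed a further array. miR-574-5p measured 9.56 and miR-1187 9.01 on OVA/OVA replicate 3, against at most 7.65 and 7.05 on every other array. The members highest or near highest on that array were miR-466c-5p_v15.0 at 6.34 and miR-467f at 6.83, while miR-467e-3p at 2.49 and miR-467d-3p at 3.67 were among their own lowest there. miR-466c-5p_v15.0 correlated at 0.93 with miR-1187 and 0.87 with miR-574-5p over 16 arrays, and at 0.91 and 0.87 over 13. None of miR-574-3p, miR-574-5p, miR-1187 and miR-672-5p was called in any of the 6 comparisons, and their largest difference was 1.75 ± 0.89 (SE, adjusted p = 0.15 in limma) for miR-1187 between OVA/OVA and PBS/PBS. These 4 were picked by their sequence after array values had been seen.

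**Figure D5:**
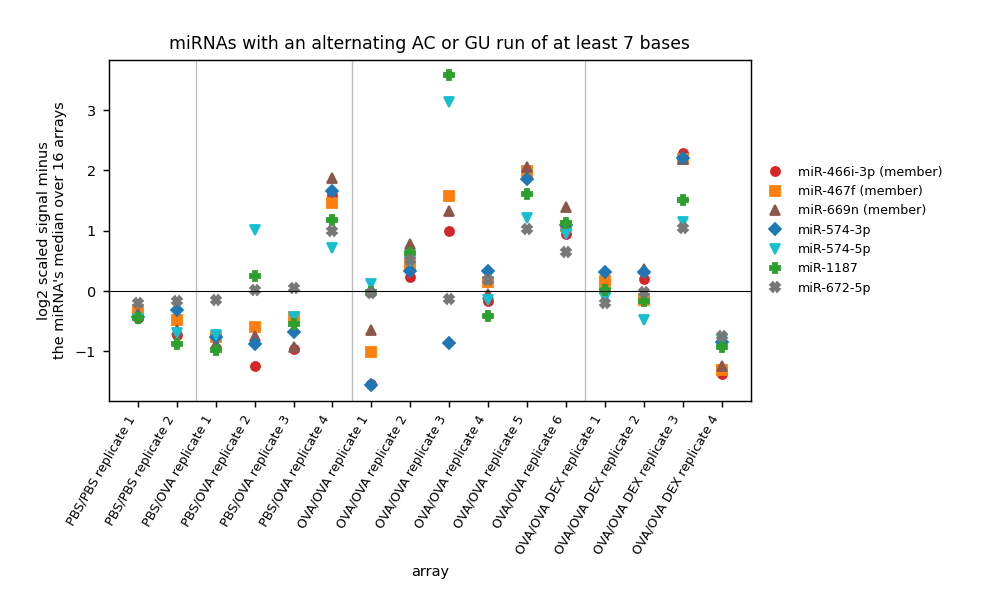
Points give, on each of the 16 arrays, the log2 scaled signal of 3 members and 4 other miRNAs with an alternating AC or GU run of at least 7 bases, minus each miRNA's own median over the arrays; grey lines separate the groups. All 7 lie above their medians on PBS/OVA replicate 4, OVA/OVA replicate 5 and OVA/OVA DEX replicate 3, and on OVA/OVA replicate 3 miR-574-5p and miR-1187 lie highest while miR-574-3p lies below its median.

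Marker miRNAs of the lung were present on every array. All 6 haematopoietic, 4 ciliated, 5 epithelial, 2 endothelial and 2 smooth muscle miRNAs were detected on all 16 arrays. None of the 14 miR-290 to miR-295 names was detected on every array. Of 3 erythroid names listed, 2 were matched by name, and both were detected on all 16 arrays. Of 4 striated muscle names listed, 3 were matched, and 1 of these was detected on all 16 arrays. An unmatched name may still be on the array under another name. The erythroid and striated muscle sums below cover the matched names only. The summed log2 signal of the haematopoietic list was 15.02 to 15.58 in OVA/OVA and 14.00 to 14.73 in the other groups, and the epithelial list was 13.06 to 13.35 over all groups. The striated muscle list was 6.15 to 7.46 in OVA/OVA and 7.31 to 8.07 in the other groups, and the erythroid list was 16.61 to 17.05 in OVA/OVA DEX and 15.18 to 16.41 in the others. These are ranges per group, and the sums on the 3 arrays that stood apart were not looked at singly. The part of these lists in the members' values was not tested.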

How the data were processed

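Whole-lung miRNA was measured on 16 Agilent 1-colour arrays on 2 slides. The authors deposited scanner output, in which Agilent Feature Extraction 10.7.3.1 gives the intensity of each spot after subtraction of local background and without normalization across arrays. The authors also deposited processed log2 values, whose shift per array is not stated, and 151 of their 672 rows, 1 of them a member, matched it with a tolerance of 0.15 in log2. They were used as an alternative only.

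Control and outlier spots were left out, a probe was the mean of its spots and a miRNA the sum of its probes. The 75th percentile of each array, over the 206 miRNAs that all arrays detected, was brought to their common geometric mean, and log2 was taken of values no lower than a floor of 1.71. The floor is the median over arrays of the lowest scaled signal of a detected miRNA. Group means over all 16 arrays were fitted with limma 3.58.1 in R 4.3.3 with Benjamini-Hochberg adjustment over 266 miRNAs, and calls required an adjusted p under 0.05 and 2-fold. The authors' text names GeneSpring GX and the Mann-Whitney test. The fit was tested on simulated data. Python 3.11.15 (pandas 2.3.3, numpy 2.4.6, scipy 1.17.1, matplotlib 3.10.9) was used otherwise.

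Levels are given for each member tested, detection counts for the other detected members, and a difference with its error for members with an adjusted p under 0.05, or else the smallest p of a comparison. Alternatives were other scalings, background corrections, detection filters, floors, tests, thresholds, blocks and variance models, and leaving out each array. Subtraction of the negative control median per probe, leaving out 3 arrays together and fits within each slide were added after seeing the data. Normexp used the median spot signal. The members and lists were chosen with earlier results of these data known. Sequences and gene names are from RefSeq tables for GRCm38.p6, whereas the scanner files name mm9, and 6 of 39 members had a mature sequence there. Arrays on which a miRNA is not detected limit it to an upper bound, and the number of arrays limits the precision.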

Additional observations from a re-analysis of the deposited data

Results flagged for a closer look

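In 8 of 39 sets of 4 or 6 arrays, 1 array lay outside the others of its group by Dixon's test, in which chance gives about 1 in 20. PBS/OVA replicate 4 was the outlying array in 7 of them, with gaps of 0.917 of the group's range for miR-466c-5p_v15.0, 0.922 for miR-466f-3p, 0.894 for miR-466i-3p, 0.849 for miR-467f, 0.861 for miR-669a_v15.0, 0.936 for miR-669f-3p and 0.936 for miR-669n. For miR-466f-3p this array measured 7.64 on the log2 scale and the other 3 of its group 4.03 to 4.31. OVA/OVA replicate 5 was the eighth, with a gap of 0.672 for miR-669f-3p, at 7.15 against 5.98 to 6.36. These 39 sets cover the 13 members alone, share arrays and are not independent. The same count over all 266 miRNAs tested was not made, so 8 of 39 is not read as a trait of the members.

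Signal also appeared in members that the main detection filter left out of the comparisons and that no PBS/PBS array detected. miR-467b-3p, miR-467g and miR-669h-3p were detected on 5 arrays each, miR-466h-5p on 4, miR-466d-3p, miR-669e-5p and miR-669l-5p on 2 each and miR-466j on 1. The difference between groups in these counts was not tested.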

How the results depend on the processing

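Of 267 counts of called members under alternatives, 261 were 0 and 6 were above 0. Between OVA/OVA and PBS/PBS, 2 members were called without scaling between arrays (miR-466b-3p at -1.41 and miR-467e-5p at -1.11, both lower in OVA/OVA, beside a median of -1.11 over all miRNAs tested and 58.6% of them called), and 5 after normexp (1.01 to 1.06, beside a median of 0.54 and 11.3% called). Without OVA/OVA DEX replicate 3, 1 member was called between OVA/OVA and OVA/OVA DEX, and leaving out each array gave 0 to 1 there and 0 in the other comparisons. Without the 3 arrays that stood apart, 1 was called in that comparison and 1 between OVA/OVA and PBS/OVA, where the adjusted p alone also gave 1. The exact two-sided Mann-Whitney test called 0 members in all 6 comparisons, with 1 unadjusted p under 0.05. With the 2 arrays of PBS/PBS this test cannot reach 0.05. Its counts of 0 against that group, which are among the 261, were therefore fixed in advance. The 261 also include counts from the deposited values, which hold 1 member, and from the filter on all arrays, which holds 3.

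The difference of miR-467b-5p between OVA/OVA and PBS/OVA kept its direction and side of the threshold in 19 of 38 alternatives, lost the threshold in 16 and reversed in 3, at -0.22 without scaling, -0.0926 after quantile normalization and -0.27 with positive control spots. Its other differences reversed to 0.34 after normexp and 0.0134 without PBS/OVA replicate 2, with a range of -0.1454 to 0.0134 on leaving out each array (PBS/OVA minus PBS/PBS), and to -0.0431 without scaling (OVA/OVA DEX minus PBS/OVA). That of miR-669n reversed to -0.0808 within slide 1 (OVA/OVA DEX minus PBS/PBS). The cause was not tested. In OVA/OVA against PBS/PBS, the median of all miRNAs was -0.68 with scaling by positive control spots and -0.56 with the percentile over all miRNAs. It was -0.02 with the main scaling. The member medians under the first 2 were 0.10 and 0.21.

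With the replicate number as a block, 0 members were called in any comparison, and miR-467b-5p between OVA/OVA and PBS/OVA was 0.31 with an adjusted p of 0.0723 in limma. Same-numbered arrays of different groups correlated from -0.78 to 0.41 in their deviations (18 pairs, 3 above 0.1). Differently numbered arrays correlated from -0.71 to 0.82 (74 pairs, 29 above 0.1). The labels do not say what the number stands for, so it was used as a block in an alternative only. The deposited values gave no value for the members named with a test, nor did the filter on all arrays for miR-466c-5p_v15.0 and miR-669n.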
